A study of Drosophila melanogaster with 28 samples.

Results

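The 10 genes described here are the Drosophila melanogaster heat shock protein genes Hsp22, Hsp23, Hsp26, Hsp27, Hsp67Bc, Hsp68, Hsp70Aa, Hsp70Ab, Hsp83 and Hsc70-4. The list was chosen with earlier results of these data known. These genes are 10 of the 13968 protein-coding genes on the 7 chromosomes. A peak was assigned to a gene when it lay inside it or within 10 kb of either end, so the 10 genes fall into 5 windows of 131 kb in all, at the cytological sites 87A, 67B, 63B, 95D and 88E. The 18 peak lists merged into 12046 regions, of which 24 lay in these windows.

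The data are ChIP-seq peak lists for HMR (Hybrid male rescue), a chromatin protein that acts with LHR (Lethal hybrid rescue), in SL2 cells, a cultured embryonic Drosophila line. The cells carried stably integrated FLAG-HA-tagged HMR together with Myc-tagged LHR. HMRdC-tg cells carried HMR without its C-terminal part, and HMRwt-tg cells carried the full-length protein. In both, the metallothionein promoter drove the transgenes and 250 µM CuSO4 was added for 20 to 24 h, so every library, of either construct, came from copper-treated cells. Anti-FLAG antibody precipitates the transgenic protein alone, whereas anti-HMR antibody can also recognise the endogenous protein that all these cells still have. There were 5 anti-FLAG HMRdC-tg, 5 anti-FLAG HMRwt-tg, 4 anti-HMR HMRdC-tg and 4 anti-HMR HMRwt-tg lists, and each anti-HMR library shared its chromatin preparation with an anti-FLAG library, in 8 pairs. The labels do not say whether the libraries of a group came from separate cultures, so a p-value measures only the spread between these libraries. No libraries of heat-shocked cells were analysed here.

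Heat shock proteins are chaperones that keep other proteins folded. The Hsp70 proteins bind unfolded stretches, Hsp83 (the fly Hsp90) matures kinases and receptors, and the small heat shock proteins hold denatured proteins until they can be refolded. Most of these genes are switched on by the heat shock factor HSF, whereas Hsc70-4 is the Hsp70 relative that is made without stress and Hsp83 is also expressed at normal temperature. The Hsp70 genes at 87A are the textbook case of chromosomal boundaries: the elements scs and scs′ flank the locus on its 2 sides, at the starts of neighbouring genes, and scs′ is bound by BEAF-32, an insulator protein that recognises clusters of CGATA.

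The sequences under 6 of the regions are printed here: starts of neighbouring genes beside the heat shock genes, with and without CGATA, the start of a heat shock gene itself, and a site called with only 1 antibody. Each is 200 bases of the forward strand of the dm6 genome, taken at the median peak centre and moved by at most 71 bases where needed to lie outside annotated exons. Capitals mark matches, on either strand, to CGATA (BEAF-32), TATCGATA (DREF), GAGAG (GAGA factor), GAANNTTC (core of a heat shock element) or GGTCACACT (M1BP). A match to TATCGATA contains CGATA on both strands. The windows are chr3R:11962924-11963123 between CG3281 and aurA at 87A, chr3L:9367047-9367246 between Klp67A and CG4452 at 67B, chr3R:24058087-24058286 upstream of SMC1 at 95D, chr3L:3197632-3197831 upstream of CG14966 at 63B, chr3R:15242484-15242683 upstream of Hsc70-4 at 88E, and chr3R:15249386-15249585 between Amt and CG42404 at 88E.
CG3281/aurA (87A): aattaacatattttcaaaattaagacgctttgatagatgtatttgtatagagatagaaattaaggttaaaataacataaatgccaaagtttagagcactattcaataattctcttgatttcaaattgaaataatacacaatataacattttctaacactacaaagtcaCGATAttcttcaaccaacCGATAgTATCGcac
Klp67A/CG4452 (67B): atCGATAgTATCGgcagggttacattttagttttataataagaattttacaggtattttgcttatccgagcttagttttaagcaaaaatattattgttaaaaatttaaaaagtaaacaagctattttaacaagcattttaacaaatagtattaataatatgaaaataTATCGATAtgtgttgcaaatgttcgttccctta
SMC1 (95D): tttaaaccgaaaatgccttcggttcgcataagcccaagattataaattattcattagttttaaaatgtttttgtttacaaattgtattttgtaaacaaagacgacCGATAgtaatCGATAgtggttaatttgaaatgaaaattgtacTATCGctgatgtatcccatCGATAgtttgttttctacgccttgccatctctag
CG14966 (63B): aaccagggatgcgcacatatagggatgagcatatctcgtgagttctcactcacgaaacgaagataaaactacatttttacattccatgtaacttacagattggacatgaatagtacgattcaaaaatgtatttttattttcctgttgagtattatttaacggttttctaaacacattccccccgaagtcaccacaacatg
Hsc70-4 (88E): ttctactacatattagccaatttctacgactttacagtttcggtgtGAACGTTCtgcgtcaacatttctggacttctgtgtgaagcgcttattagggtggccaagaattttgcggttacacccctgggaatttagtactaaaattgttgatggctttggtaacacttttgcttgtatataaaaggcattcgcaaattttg
Amt/CG42404 (88E): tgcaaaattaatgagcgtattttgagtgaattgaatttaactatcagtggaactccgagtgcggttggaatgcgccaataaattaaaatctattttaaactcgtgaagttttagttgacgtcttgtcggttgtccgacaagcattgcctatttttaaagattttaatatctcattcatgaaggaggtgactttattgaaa
The CG3281/aurA window held 3 CGATA matches within its last bases, the Klp67A/CG4452 window 4 (2 of them within a TATCGATA) and the SMC1 window 4. The Hsc70-4 window held no CGATA and a single heat shock element core, and the CG14966 and Amt/CG42404 windows held none of the 5 motifs.

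Across the 10 genes, a region called in at least 5 of the 10 anti-FLAG lists lay in or within 10 kb of 8 genes, and a region called in at least 4 of the 8 anti-HMR lists lay within that distance of 4. These shares stand beside 56.7% and 47.5% of all protein-coding genes. Genes of one cluster share regions, so the 10 genes are not independent. The Klp67A region at 67B counts for Hsp67Bc, Hsp22 and Hsp26 with anti-FLAG. The CG3281/aurA region at 87A counts for Hsp70Aa and Hsp70Ab with both antibodies. Within 1 kb, the counts were 3 genes with anti-FLAG and 2 with anti-HMR, beside 26.7% and 20.7% of protein-coding genes. Even within 10 kb, Hsp23 and Hsp27 had no such region with either antibody. Of the 24 regions in the windows, 6 passed the anti-FLAG criterion, 4 the anti-HMR criterion and 2 both, which leaves 8 regions to describe in full. Of the 16 others, 9 were called in a single list. Lists ranged from 465 to 9049 peaks, and 8 of the 24 regions were called only in the 2 longest (anti-FLAG HMRwt-tg replicate 4 and anti-HMR HMRwt-tg replicate 3, from the same chromatin), so that 16 remained without them. Without these 2 lists, an alternative chosen after seeing the data, 8 genes and 6 regions still passed the anti-FLAG criterion. In the first 50% of each list's lines, 3 genes and 3 regions did.

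**Figure D1:**
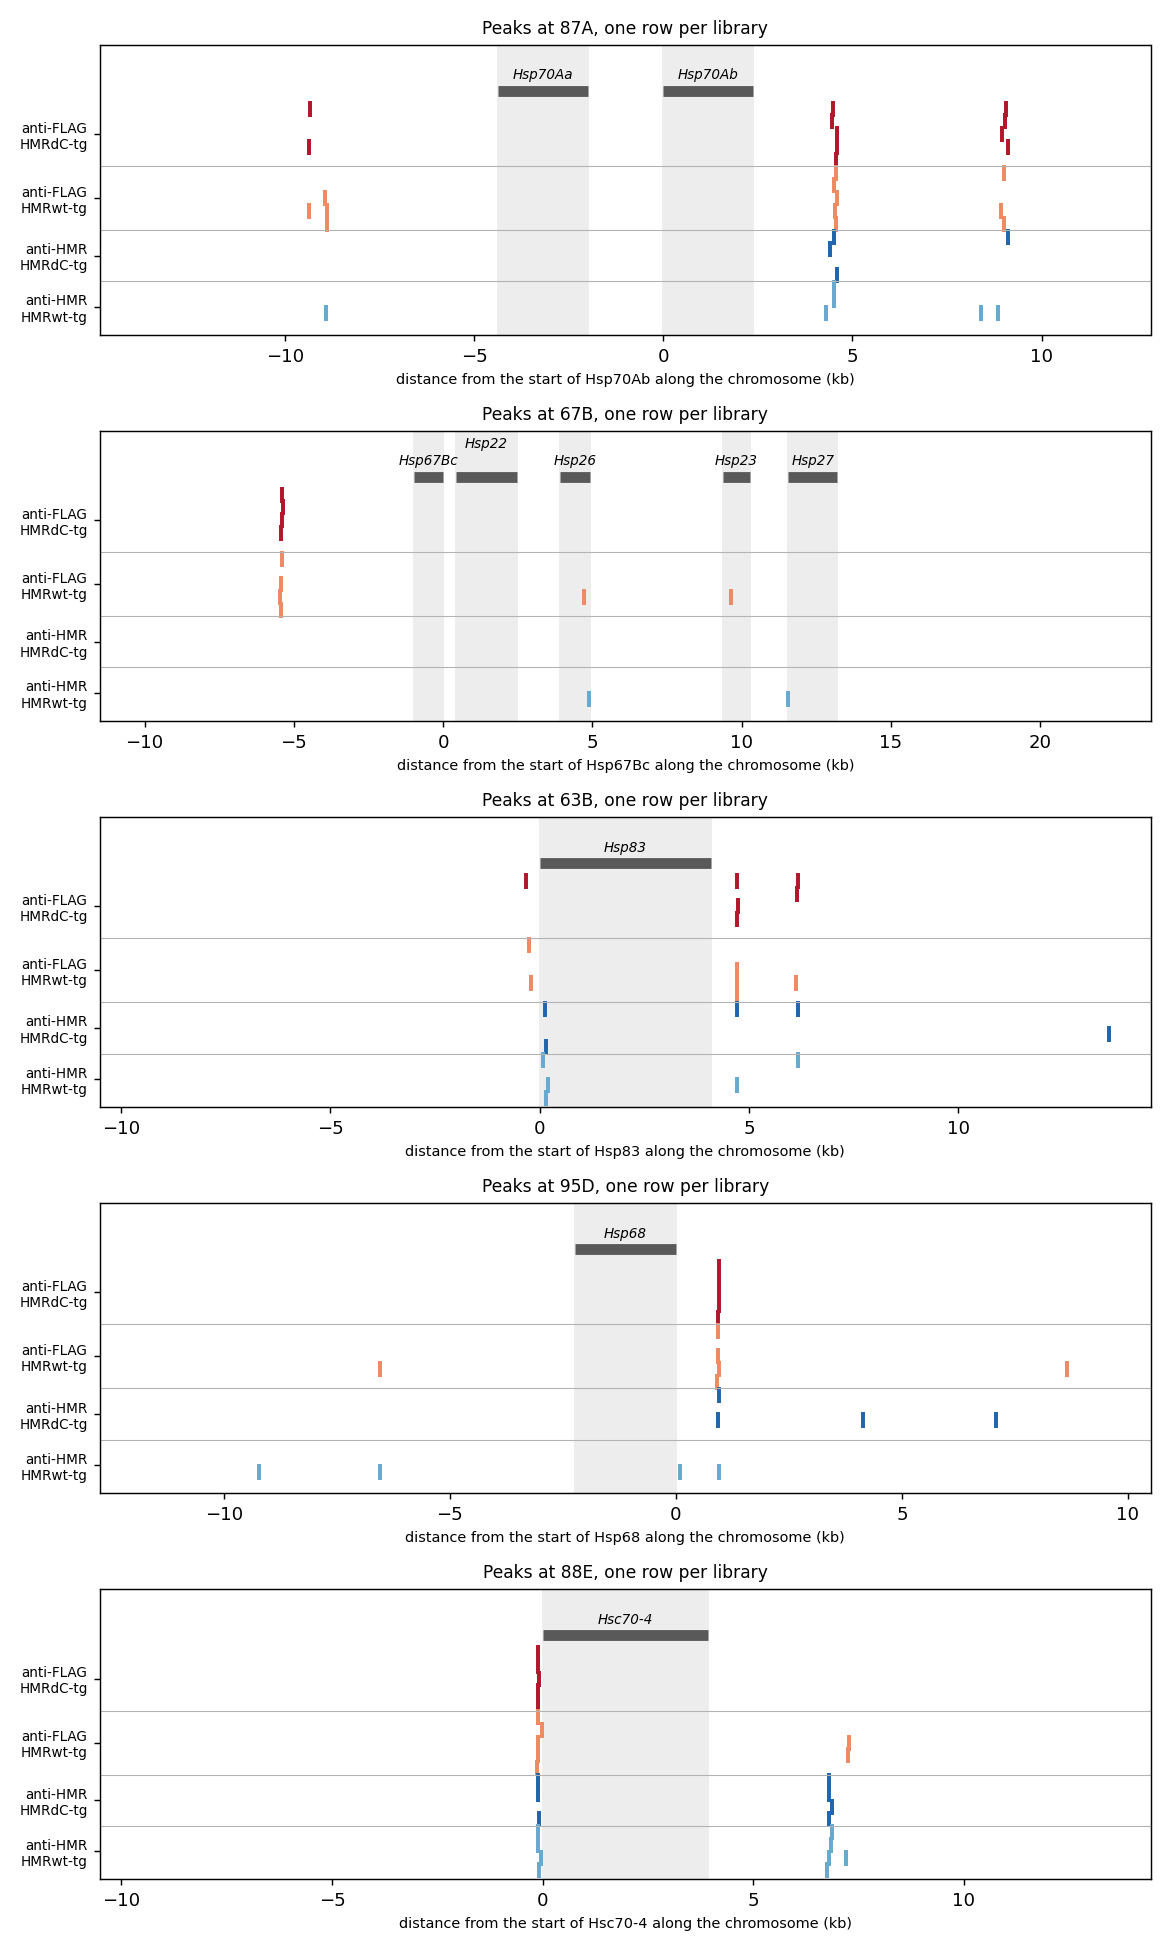
Peak centres in the 5 windows, with 1 row per library (anti-FLAG HMRdC-tg at the top, then anti-FLAG HMRwt-tg, anti-HMR HMRdC-tg and anti-HMR HMRwt-tg), against distance in kb from the start of the named heat shock gene. Grey bars and shading are the heat shock genes. Ticks line up beside Hsp70Ab in 16 of 18 rows, beside Hsp68 in 12 and at the Hsc70-4 start in 17, whereas those beside Hsp67Bc at 67B are in 8 anti-FLAG rows and no anti-HMR row.

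At 87A, Hsp70Aa and Hsp70Ab, the stress-inducible Hsp70 genes, lie head to head within 6747 bp, and no list had a peak between their outer ends. This blank cannot be read as a lack of HMR. Of the 2333 stretches of 50 bases in Hsp70Aa, the read length used, 26 occur once in the genome, and of the 2326 in Hsp70Ab, 19 do. The 2 genes were identical at 2374 of 2375 aligned bases, and reads that fit several places were filtered out by mapping quality before peak calling. Of the bases between the genes, 71.5% of stretches were unique, against 80.5% over the whole 87A window, and the regions described next were 100% unique.

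The region beside Hsp70Ab was the most often called of the 87A window. It spanned chr3R:11962738-11963227, 1829 bp past the end of Hsp70Ab, over the 5′ UTRs of CG3281 and of aurA, which encodes the mitotic kinase Aurora A, and these divergent starts are where scs′ has been placed. All 10 anti-FLAG libraries called it, as did 3 of 4 anti-HMR HMRdC-tg and 3 of 4 anti-HMR HMRwt-tg libraries. Anti-FLAG peak centres lay a median of 34 bp upstream of the aurA start, with a range of 128 bp upstream to 4 bp downstream. The CGATA matches of the printed sequence therefore lie at the edge of the window nearest to aurA, where these centres fall. In position within each list, on a scale where 0 is the first line and 100 the last, this region stood at 24.1, 35.2, 73.8, 53 and 88 in anti-FLAG HMRdC-tg replicates 1 to 5 and at 50.9, 73.3, 82.9, 48.1 and 74.1 in anti-FLAG HMRwt-tg replicates 1 to 5. The groups overlapped, and 7 of the 10 anti-FLAG positions lay past 50.

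A second region on the same side lay at chr3R:11967280-11967755, 6371 bp past Hsp70Ab, between CG12213 and GC1, a mitochondrial glutamate carrier gene. It was called by 4 of 5 anti-FLAG HMRdC-tg, 3 of 5 anti-FLAG HMRwt-tg, 1 of 4 anti-HMR HMRdC-tg and 1 of 4 anti-HMR HMRwt-tg libraries. Within 200 bp at its centre there were 3 CGATA matches and 1 heat shock element core. On the other side of the locus, where scs lies at the starts of Cad87A, a cadherin gene, and CG31211, no region met either criterion. Named after their values were seen, the Cad87A region was called by 2 anti-FLAG HMRdC-tg and 1 anti-FLAG HMRwt-tg libraries and by no anti-HMR library. The CG31211 region was called by none of the 5 anti-FLAG HMRdC-tg and 3 of the 5 anti-FLAG HMRwt-tg libraries, with an unadjusted Fisher's exact p of 0.167, and by 1 anti-HMR HMRwt-tg library.

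At 67B, the small heat shock genes Hsp67Bc, Hsp22, Hsp26, Hsp23 and Hsp27 lie within 14184 bp. Their proteins share the alpha-crystallin domain, and Hsp22 acts in mitochondria. No region inside the cluster met either criterion. The 3 regions there were each called in 1 or 2 lists, all of them the 2 longest. One lay over the Hsp26 start, called in anti-FLAG HMRwt-tg replicate 4 and anti-HMR HMRwt-tg replicate 3. Another lay in the Hsp23 coding exon in anti-FLAG HMRwt-tg replicate 4 alone, and the last at the Hsp27 start in anti-HMR HMRwt-tg replicate 3 alone. In Hsp27, 54.8% of the 50-base stretches were unique, while in Hsp22, Hsp23, Hsp26 and Hsp67Bc 100% were, so reads from those 4 genes had 1 place to map to.

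The region that anti-FLAG libraries called at 67B lay outside the cluster. It spanned chr3L:9366934-9367219, 4292 bp from Hsp67Bc, over the 5′ UTR of Klp67A, which encodes a kinesin of the mitotic spindle. It was called by 4 of 5 anti-FLAG HMRdC-tg and 4 of 5 anti-FLAG HMRwt-tg libraries and by none of the 8 anti-HMR libraries. Its list positions were 68.3, 88.4, 93.2 and 87.6 in anti-FLAG HMRdC-tg replicates 1 to 4, and 85.9, 84.4, 65.5 and 62.7 in anti-FLAG HMRwt-tg replicates 1, 3, 4 and 5. Every one lay past position 50, so this was among the weaker calls if list order follows peak score. On the other flank of the cluster, past Hsp27, no list had a peak within 10 kb. Over the whole 67B window 85.4% of the 50-base stretches were unique. The share in this flank alone was not computed, so the blank cannot be read as a lack of HMR.

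At 95D, Hsp68, a stress-inducible member of the Hsp70 family, had 1 region that met a criterion. It spanned chr3R:24058133-24058370, 823 bp upstream of Hsp68, over the 5′ UTR of the divergent gene SMC1, which encodes a subunit of cohesin. It was called by 5 of 5 anti-FLAG HMRdC-tg, 4 of 5 anti-FLAG HMRwt-tg, 2 of 4 anti-HMR HMRdC-tg and 1 of 4 anti-HMR HMRwt-tg libraries. The 9 anti-FLAG centres fell between 54 and 16 bp upstream of the SMC1 start, that is, 922 to 960 bp upstream of Hsp68. The centres sit over the end of the printed SMC1 window and their range takes in the last 2 of its 4 CGATA matches. At the Hsp68 start itself, anti-HMR HMRwt-tg replicate 3 alone had a peak.

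At 63B, 1 region met the anti-HMR criterion and 1 the anti-FLAG criterion. The region at chr3L:3192945-3193263, over the Hsp83 5′ UTR, met the anti-HMR criterion and was called by 2 of 4 anti-HMR HMRdC-tg and 3 of 4 anti-HMR HMRwt-tg libraries and by none of the 10 anti-FLAG libraries. Its centres, at 3193044 to 3193164, lay 52 to 172 bp upstream of an inner annotated start of Hsp83 at 3193216. These centres fell inside the gene, downstream of the outer Hsp83 start at 3192969. The list positions of the region were 27.1 and 54.7 in anti-HMR HMRdC-tg replicates 1 and 4, and 20.1, 3.15 and 40.4 in anti-HMR HMRwt-tg replicates 1, 3 and 4. A neighbouring region at chr3L:3192531-3192847, named after its values were seen, was called by 1 anti-FLAG HMRdC-tg and 2 anti-FLAG HMRwt-tg libraries and by no anti-HMR library. Its peaks lay 222 to 338 bp upstream of the outer Hsp83 start at 3192969. The 2 regions shared no base and were counted apart, so the counts of each antibody hold for this way of joining peaks.

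Past the other end of Hsp83, the region at chr3L:3197571-3197795, over the 5′ UTR of CG14966 and 512 bp from Hsp83, was called by 3 of 5 anti-FLAG HMRdC-tg, 3 of 5 anti-FLAG HMRwt-tg, 1 of 4 anti-HMR HMRdC-tg and 1 of 4 anti-HMR HMRwt-tg libraries. Its peaks were the most tightly placed of the 8 regions relative to a start: the 8 centres lay 40 to 64 bp upstream of the CG14966 start. None of the 5 motifs occurred in 200 bp at its centre, nor in the printed window. Both antibodies also called a region 1930 bp past Hsp83, over the starts of CG32276 and gry, that met neither criterion, with 3 of 10 anti-FLAG and 2 of 8 anti-HMR libraries.

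At 88E, Hsc70-4, the constitutive Hsp70, had the region that stood nearest the top of the lists, at a median position of 11.2 with anti-FLAG and 15.4 with anti-HMR. The region at chr3R:15242465-15242782 covered its start and part of its 5′ UTR. It was called by 5 of 5 anti-FLAG HMRdC-tg, 5 of 5 anti-FLAG HMRwt-tg, 3 of 4 anti-HMR HMRdC-tg and 4 of 4 anti-HMR HMRwt-tg libraries, 17 of 18 in all, as 297 of the 12046 regions were (in at least 17 lists). Its list positions were 9.27, 15.7, 9.88, 6.9 and 23.6 in anti-FLAG HMRdC-tg replicates 1 to 5, against 12.5, 64.2, 6.84, 4.65 and 16.4 in anti-FLAG HMRwt-tg replicates 1 to 5. With anti-HMR they were 9.58, 26.5 and 15.4 in HMRdC-tg replicates 1, 2 and 4, against 12.1, 45.9, 1.95 and 15.7 in HMRwt-tg replicates 1 to 4. Anti-HMR HMRdC-tg replicate 3 had no peak here. Both high values in HMRwt-tg came from replicate 2 of each antibody, which share a chromatin and have the shortest lists of their groups, 465 and 1150 peaks. When each list was kept to its first 465 peaks, this was the one region of the 8 still called by at least 5 anti-FLAG libraries, with 10 of 10.

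Peak centres at Hsc70-4 lay a median of 104 bp upstream of its start with anti-FLAG and 98 bp upstream with anti-HMR. The printed Hsc70-4 sequence is centred there, with its single heat shock element core, GAACGTTC, in the first part of the window. The gene that starts divergently from Hsc70-4 is tefu, which encodes the ATM kinase, and the centres lay at least 328 bp upstream of its start.

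**Figure D2:**
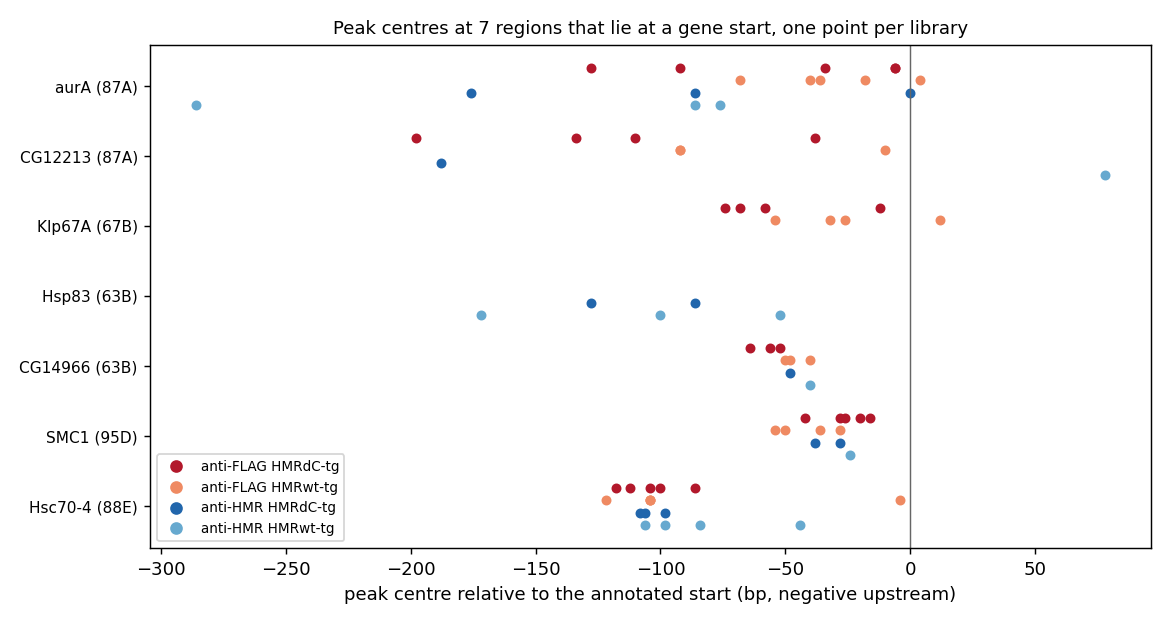
Peak centres in bp from 1 annotated start of the gene named for each region (x axis, negative upstream), at 7 of the 8 regions. There is 1 point per library, coloured by antibody and construct. For Hsp83 the inner start is used, and single points can lie nearer to another start. Centres at SMC1 and CG14966 fall within 64 bp upstream of the start, those at Hsc70-4 mostly near 100 bp upstream, and those at aurA and CG12213 spread most widely.

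The Amt/CG42404 region was the 1 region of the windows that passed the test between antibodies. It lay at chr3R:15249345-15249653, 2731 bp past the end of Hsc70-4, between Amt, an ammonium transporter gene, and CG42404, and at 349 bp upstream of the Amt start by the median it was not at an annotated start. None of the 10 anti-FLAG libraries called it, against 4 of 4 anti-HMR HMRdC-tg and 4 of 4 anti-HMR HMRwt-tg libraries. The difference of -100 percentage points (anti-FLAG minus anti-HMR) had p = 2.29e-05 and an adjusted p of 0.00424 by two-sided Fisher's exact test over the 12046 regions, with Benjamini-Hochberg adjustment. Of all regions, 1.69% were called toward anti-HMR and 0.0332% toward anti-FLAG, and 64 had this same pattern of 0 anti-FLAG and 8 anti-HMR libraries. With the chromatins paired, all 8 differed in this direction (exact sign test p = 0.00781, the smallest that 8 pairs can give), and the adjusted p was 0.882. Leaving out each library in turn gave adjusted p of 0.00373 to 0.00951 by Fisher's exact test. The call was lost in the first 50% of each list's lines (-50 percentage points, adjusted p = 0.264, same exact test) and in the first 465 peaks (-12.5, adjusted p = 0.572). Its list positions were 67.5, 41.4, 23.7 and 44 in anti-HMR HMRdC-tg replicates 1 to 4, and 68.8, 57.1, 40.1 and 58.5 in anti-HMR HMRwt-tg replicates 1 to 4. A separate region nearer CG42404, named after its values were seen, was called by 2 anti-FLAG HMRwt-tg libraries and 1 anti-HMR HMRwt-tg library.

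No other region of the windows differed between antibodies after adjustment. The Klp67A region, called in 8 of 10 anti-FLAG and 0 of 8 anti-HMR libraries, had p = 0.00105 and an adjusted p of 0.0584 by Fisher's exact test. Its adjusted p was 0.0234 without anti-FLAG HMRdC-tg replicate 5 and 0.0227 without anti-FLAG HMRwt-tg replicate 2, the anti-FLAG libraries that lacked the peak, and between 0.0227 and 0.124 over all libraries left out in turn. The Hsp83 region, in 0 of 10 anti-FLAG and 5 of 8 anti-HMR libraries, had p = 0.00654 and an adjusted p of 0.192 by the same exact test. The SMC1 region, in 9 of 10 anti-FLAG and 3 of 8 anti-HMR libraries, had p = 0.043 and an adjusted p of 0.572 by the same exact test. The CG3281/aurA, CG12213/GC1, CG14966 and Hsc70-4 regions were each called in a larger share of anti-FLAG libraries, by 25, 45, 35 and 12.5 percentage points, with adjusted p of 0.572 each by the same exact test. In the first 50% of each list's lines the difference at CG12213/GC1 turned to -2.5 percentage points and that at CG3281/aurA was 5.

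The constructs were compared to ask whether loss of the HMR C terminus changes binding. None of the 15 regions of the windows tested with anti-FLAG differed between HMRdC-tg and HMRwt-tg in the number of calling libraries, and none of the 19 tested with anti-HMR. For anti-FLAG, 0 passed by Fisher's exact test at an unadjusted p under 0.05 as well, and 0 by an exact permutation test on list position. Over all regions, 0% of 4699 passed after adjustment with anti-FLAG and 1.68% before it, all 79 of them higher in HMRwt-tg, with 6.28% before adjustment by list position. With anti-HMR, 0% of 11037 passed either way, and 4 libraries against 4 cannot give a p below 0.0286. The largest anti-FLAG difference at the 8 regions was 20 percentage points, 1 library, at CG12213/GC1 and at SMC1, both higher in HMRdC-tg with p = 1 by Fisher's exact test. With anti-FLAG, 5 libraries against 5 cannot give a p below 0.00794 by Fisher's exact test. After adjustment over 4699 regions, a difference at only a few regions could not pass. Differences can thus be missed, and these counts do not show that the constructs bind alike.

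By list position, the anti-FLAG libraries of the 2 constructs overlapped at each of the 6 regions that anti-FLAG called. At Hsc70-4 the anti-FLAG positions averaged 13.1 ± 6.73 in HMRdC-tg and 20.9 ± 24.6 in HMRwt-tg (SD, n = 5 each, exact permutation p = 0.738). At CG3281/aurA they averaged 54.8 ± 26.4 in HMRdC-tg and 65.9 ± 15.4 in HMRwt-tg (SD, n = 5 each, exact permutation p = 0.452). At the Klp67A region, counting a library without the peak as 100, the difference was 7.79, HMRdC-tg minus HMRwt-tg, with a higher value further down the list (exact permutation p = 0.373). At SMC1, counted in the same way, the difference was -11.1, HMRdC-tg minus HMRwt-tg (exact permutation p = 0.778). This direction rests on anti-FLAG HMRwt-tg replicate 2, which lacked the peak and was counted as 100. The libraries that called SMC1 averaged 28.3 in HMRdC-tg and 24.2 in HMRwt-tg, the other direction. The adjusted p by this test was 1 in every case.

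**Figure D3:**
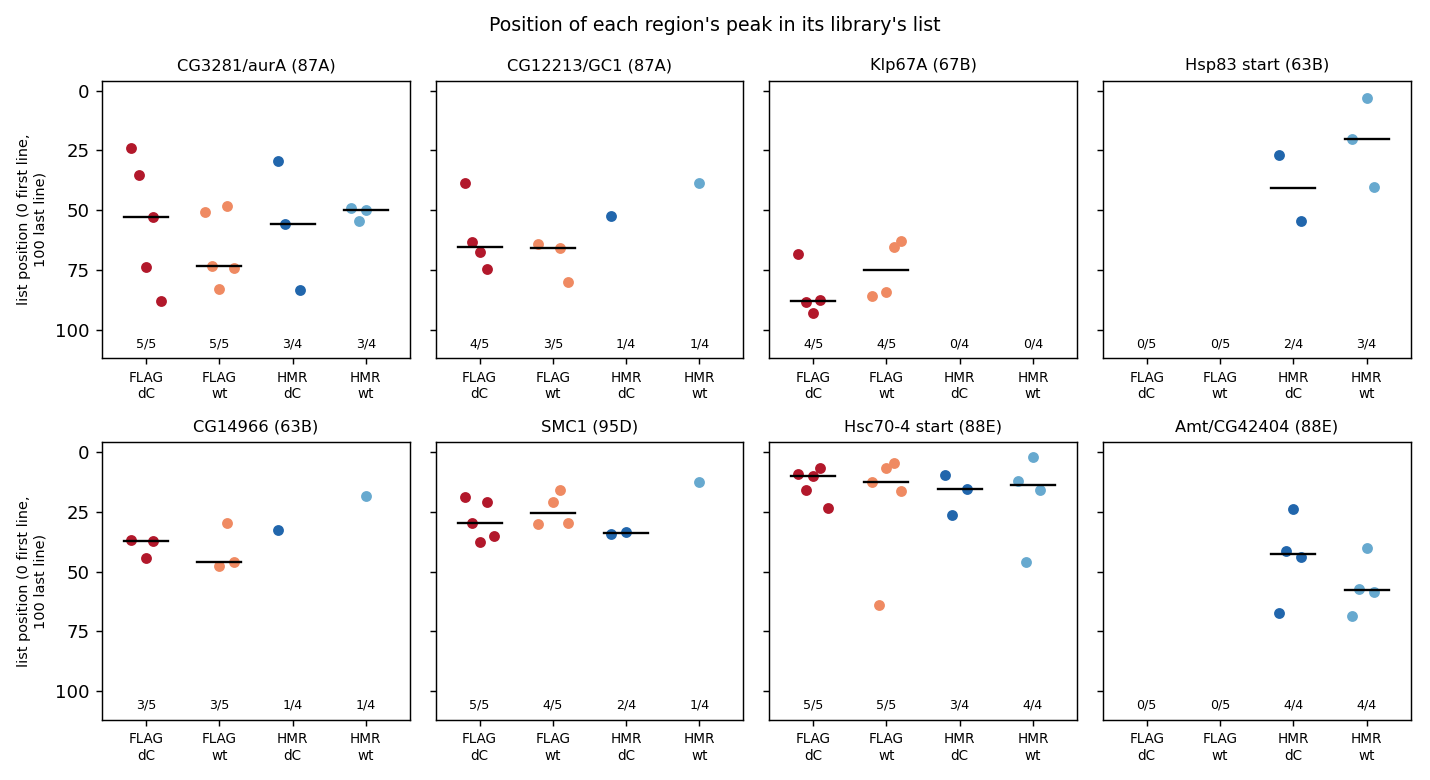
Position of each region's peak in its library's list (y axis, 0 the first line at the top, 100 the last), by antibody and construct, 1 point per library that called it and a line at the median where there are 2 or more. The fraction under each column is the number of libraries with the peak. Hsc70-4 stands nearest the top in most libraries, Klp67A past position 50 in every list, and Hsp83 and Amt/CG42404 have anti-HMR points only.

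The share of each list that fell in the 5 windows was 0.267 to 0.336% in anti-FLAG HMRdC-tg libraries and 0.255 to 0.43% in anti-FLAG HMRwt-tg libraries, and 0.183 to 0.255% in anti-HMR HMRdC-tg and 0.166 to 0.261% in anti-HMR HMRwt-tg libraries. The windows make up 0.0954% of the 7 chromosomes, Y included. The share in windows around other genes was not computed, so these values do not set the heat shock genes apart. Anti-FLAG libraries averaged 0.307 ± 0.0519% (SD, n = 10) and anti-HMR libraries 0.211 ± 0.039% (SD, n = 8), and the 2 constructs overlapped within each antibody. These shares rest on 2 to 15 peaks per library. In the first 50% of each list's lines, anti-FLAG stood above anti-HMR in HMRdC-tg libraries but not in HMRwt-tg libraries. There the shares averaged 0.327% in anti-FLAG HMRdC-tg and 0.184% in anti-FLAG HMRwt-tg libraries. With anti-HMR they averaged 0.265% in HMRdC-tg and 0.241% in HMRwt-tg libraries.

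In the motifs under the 8 regions, CGATA occurred within 200 bp at the centre of 4 of the 6 regions that met the anti-FLAG criterion (both 87A regions, Klp67A and SMC1), with 3 or 4 matches each. Among all 2301 regions that met this criterion 52% held at least 1 CGATA, beside 33.2% of all 12046 regions and 38.2% of the 200 bp upstream of protein-coding gene starts. TATCGATA occurred at Klp67A alone of the 8, against 12.5% of the anti-FLAG regions and 7.28% of the upstream sequences. The match counted at Klp67A is cut by the left edge of the printed window. The TATCGATA marked there is another match, outside the 200 bp at the centre. The 2 regions called by anti-HMR but not anti-FLAG, at Hsp83 and Amt/CG42404, held no CGATA, a motif found in 22.4% of the 392 regions with at least 4 anti-HMR and 0 anti-FLAG libraries. The heat shock element core occurred at CG12213/GC1, Hsp83 and Hsc70-4, against 5.56% of all regions and 6.15% of the upstream sequences. GAGAG occurred at none of the 8 (20.8% of all regions, 22.1% of the upstream sequences), nor did GGTCACACT (3.9% and 2.73%).

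Beyond the 10 genes, 25 further heat shock and chaperone genes were looked up, and all 25 were matched to the annotation. Of these, 17 had an anti-FLAG region and 9 an anti-HMR region that met the criterion within 10 kb, and 9 and 3 had one within 1 kb, which as shares stand beside the same background of all protein-coding genes. The 17 include Hsp67Bb, which overlaps Hsp22 and was counted through the Klp67A region described above. The 9 with an anti-FLAG region within 1 kb were Hsp60A, the mitochondrial chaperonin (9 of 10 anti-FLAG and 2 of 8 anti-HMR libraries), Hsc70-5, the mitochondrial Hsp70 (6 and 3), Hsc70Cb of the Hsp110 family (6 and 2), the Hsp40 gene DnaJ-1 (8 and 6), the DnaJ-type gene Droj2 (9 and 3), Hop, which couples Hsp70 to Hsp90 (9 and 5), Gp93, the Hsp90 of the endoplasmic reticulum (8 and 2), Trap1, the mitochondrial Hsp90 (9 and 6), and the heat-inducible long RNA gene Hsromega (9 and 3). At DnaJ-1, Hop and Trap1 the anti-HMR criterion was met too. The counts given are for the most often called region within 1 kb of each gene. The DnaJ-1 and Trap1 counts are for regions past the end of the gene, 51 and 323 bp from it, and not at its start. DnaJ-1 had 3 regions within 1 kb, of which 2 met the anti-FLAG criterion and 2 the anti-HMR criterion, and the others are not described here.

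The Hsp70 genes of the other cluster, Hsp70Ba, Hsp70Bb, Hsp70Bbb and Hsp70Bc, had no region that met a criterion within 10 kb. Of their 50-base stretches 12.6%, 4.92%, 2.52% and 13.4% were unique, so that peaks over these gene bodies could hardly be called either. Hsf, the gene of the heat shock factor, had a region over its start in 1 anti-FLAG HMRdC-tg and 1 anti-FLAG HMRwt-tg library and in no anti-HMR library. None of the regions named for the 25 genes differed between constructs with anti-FLAG or between antibodies after adjustment.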

How the data were processed

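The deposited files were 18 peak lists, 1 per ChIP library, holding chromosome, start and end, a kind of coordinate table with no score, fold or p-value column. Per the study's methods, the authors sequenced 50 bp single-end reads, aligned them to dm6 with Bowtie2 2.2.9, filtered reads under mapping quality 2 with SAMtools 1.3.1, and ran HOMER 4.9 on each library (factor style, fold over input of 2, size 200 bp). Apart from 1 peak, all 46127 peaks were 200 bp wide. The 10 input libraries were not analysed here. Depth per library is unknown from these files, since they give no counts.

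Peaks sharing at least 1 bp were merged over the 18 lists. A region was taken as high confidence with at least 5 of 10 anti-FLAG lists, as the authors defined it, or at least 4 of 8 anti-HMR lists, a criterion set here. All 10 genes were described, with each region in or within 10 kb of one that met either criterion, and of the 25 other genes those with such a region within 1 kb. The members and gene lists were chosen with earlier results of these data known.

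Presence was compared by two-sided Fisher's exact test per region, adjusted over all regions by Benjamini-Hochberg (SciPy 1.17.1). List position was used as a rank, since no list was sorted by coordinate: peaks of regions in at least 16 lists stood at a median position of 18.3, and those of regions in 1 list at 69.2. The lists carry no score that could show it directly. Antibodies were paired by shared chromatin, which the labels give through the input identifier, in 8 pairs. The tests were tested on simulated data. Genes came from Ensembl release 115 (dm6 coordinates) and sequences from the RefSeq copy of the same assembly, in which the 50-base stretches were counted on both strands by exact match. Replicates were numbered in accession order. Replicate 5 of both anti-FLAG groups was made with the NEBNext Ultra II kit and all others with the Diagenode Microplex v2 kit.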

Additional observations from a re-analysis of the deposited data

Results flagged for a closer look

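In 32 groups of 4 or 5 libraries, list lengths, window shares, list positions and peak centres were checked for 1 library far from the others, which chance alone gives in about 1 group of 20. At Hsc70-4, anti-FLAG HMRwt-tg replicate 2 stood at list position 64.2, against 4.65 to 16.4 in the other 4 libraries of its group. Its peak centre at this region, 15242682 on chromosome 3R, was also apart, 4 bp upstream of the start against 104 to 122 bp in the other 4. This library has the shortest list, 465 peaks. At the Amt/CG42404 region, anti-HMR HMRdC-tg replicate 3 had its peak centre at 15249554 on chromosome 3R, 540 bp upstream of CG42404, against 610 to 620 bp in the other 3 libraries.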

How the results depend on the processing

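The 30 results were recomputed under the alternatives that apply to each, with no value where no compared list kept a peak in the region. In those runs 0 construct differences passed. Keeping the first 50% of each list's lines left 3 genes with a high confidence anti-FLAG region within 10 kb (8 as reported), 3 such regions (6 as reported) and 0 antibody differences (1 as reported). Keeping the first 465 peaks left 1 gene, 1 region and 0 antibody differences. At Amt/CG42404 the difference was -50 percentage points in the first 50% (adjusted p = 0.264 by Fisher's exact test) and -12.5 in the first 465 (adjusted p = 0.572, same exact test). At CG12213/GC1 the antibody difference turned to -2.5 percentage points in the first 50%, against 45 as reported. Within 5 kb 5 genes had a region, and within 1 kb 3 genes and 3 regions. At least 3 of 10 libraries gave 10 regions. With the shared chromatin as replicate block, Amt/CG42404 kept -100 percentage points (adjusted p = 0.882, exact sign test), and 0 regions passed anywhere, since 8 pairs cannot give a p below 0.00781 before adjustment. The block changed no other call. Leaving out each library in turn gave 1 to 2 antibody differences, 8 genes and 6 regions, the second difference being the Klp67A region. Window shares moved past the spread between libraries in the first 50% of lines (0.327% in anti-FLAG HMRdC-tg, 0.184% in anti-FLAG HMRwt-tg and 0.265% in anti-HMR HMRdC-tg libraries, beside 0.241% in anti-HMR HMRwt-tg libraries, which did not) and in the first 465 peaks (0.258% in anti-FLAG HMRdC-tg and 0.269% in anti-HMR HMRdC-tg libraries). In these shortened lists fewer peaks enter by construction. Merging at 100 bp, merging each antibody alone, leaving out the 2 NEBNext libraries or, chosen after seeing the data, the 2 longest lists moved no called result, and the antibody comparison could not be made with each antibody merged alone. A peak list shows no signal below its caller's threshold, so a library without a peak is not a library without HMR.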
